A study of Mus musculus with 24 samples.

Results

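Histamine synthesis, breakdown and reception were followed in mouse hypothalamus through 6 genes, taken as the probe sets whose platform annotation carries exactly 1 of the symbols Hdc, Maob, Hnmt, Hrh1, Hrh2 or Hrh3. All 6 were found among the 19937 genes measured by a probe set with a single gene symbol, each with 1 probe set. Their RNA was measured on 24 whole-transcript microarrays, 1 per male mouse with no pooling, in hypothalamus taken at the daily peak of blood pressure. The 4 groups of 6 mice were BPH/2J at 26 weeks, BPN/3J at 26 weeks, BPH/2J at 6 weeks and BPN/3J at 6 weeks; mice of the BPH/2J strain are hypertensive, and those of BPN/3J, set against them, are normotensive. No treatment or engineered allele was named for any group, and each strain stands for itself alone, so that a strain difference covers every locus at which the 2 strains differ. Levels are given as log2 intensity after robust multi-array averaging (RMA), on which a difference of 1 is a doubling. A level was compared between arrays for the same gene and never between genes.

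Histamine in the brain is made by neurons of the tuberomammillary nucleus in the posterior hypothalamus, which project widely and promote wakefulness. Hdc encodes histidine decarboxylase, which makes histamine from histidine and marks these neurons; mast cells carry the same enzyme. In brain, histamine is methylated by Hnmt, histamine N-methyltransferase, and the methylated product is then oxidised by monoamine oxidase B, encoded by Maob. Hrh1, Hrh2 and Hrh3 encode receptors coupled to G proteins. The product of Hrh3 is also an autoreceptor on histaminergic neurons, where it restrains histamine synthesis and release.

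The sequence just upstream of the Hdc start is shown because Hdc had the widest spread of the 6 genes and the largest differences between groups. RefSeq (GRCm38.p6) held start windows for 5 of the 6 genes, namely Hdc, Hnmt, Hrh1, Hrh2 and Hrh3. The Hdc window lies at chr2:126618679-126618928 on the minus strand and ends at the base before the annotated start of the gene. Capitals mark a GC box, GGGCGG, at bases 48 to 43 before the start.
Hdc: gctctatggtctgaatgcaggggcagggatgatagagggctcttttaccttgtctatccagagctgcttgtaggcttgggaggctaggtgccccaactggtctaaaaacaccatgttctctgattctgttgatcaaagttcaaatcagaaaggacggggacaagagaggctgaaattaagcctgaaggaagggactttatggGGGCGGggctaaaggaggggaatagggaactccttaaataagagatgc
The letters GGGCGG, searched on both strands, were in 32.7% of 32851 windows of 250 bases, and among the 6 genes also in windows of Hrh1, Hrh2 and Hrh3 and not in the Hnmt window. Matches to TATAAA (12.4% of all windows), TGACGTCA (1.55%) and CACGTG (6.02%) were not present in any window of the 5 genes.

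The array data were checked first. Each of the 6 genes lay above the median of the unnamed probe sets (4.60 to 5.25 by array) on all 24 arrays. Of 15 hypothalamus marker genes 14 did so on all 24 arrays, and so did all 15 thalamus marker genes. The mean of the thalamus list was 7.54 to 9.37 in 6-week BPH/2J, and 9.33 to 9.72 in 6-week BPN/3J, 9.33 to 9.58 in 26-week BPH/2J and 8.85 to 9.77 in 26-week BPN/3J. At 26 weeks 4 arrays, replicates 5 and 6 of each strain, stood apart from the other arrays of that age on the first principal component of the deviations from group means; the labels give no batch. For the 6 genes, values without these arrays are printed where leaving them out changed a call, and for some values that moved. For other genes not all such changes are printed.

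Hdc was the only one of the 6 genes to differ between strains at 6 weeks. Its level was 8.45 ± 0.27 in BPH/2J and 7.29 ± 0.91 in BPN/3J (SD, n = 6 each), a difference of 1.16 ± 0.33 (SE; 95% interval 0.47 to 1.84) or 2.23-fold. The lowest, median and highest Hdc values were 8.02, 8.51 and 8.73 in 6-week BPH/2J, against 6.20, 7.33 and 8.32 in 6-week BPN/3J. The BPH/2J arrays lay close together and the BPN/3J arrays were spread out, with 3 of them at 6.20, 6.41 and 6.91 and the other three at 7.76, 8.16 and 8.32. The groups overlapped, with 4 of the 6 BPH/2J arrays above every BPN/3J array. The limma adjusted p was 0.0310, with Benjamini-Hochberg adjustment over the 19937 genes, and the unadjusted exact permutation test of this gene alone (two-sided, 1 of 24 such tests) gave p = 0.0108. Of the 6 genes 1 was called, against 7.42% of all genes called in either direction.

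The Hdc difference at 6 weeks was measured beside a difference in the tissue's marker genes. All 15 thalamus markers were called lower in 6-week BPH/2J than in 6-week BPN/3J, and 8 of 15 hypothalamus markers were called higher. These lists were chosen with earlier results of these data known. The mean of the thalamus list varied most within 6-week BPH/2J (SD 0.675), against SDs of 0.10 to 0.32 in the other groups. The mean of the hypothalamus list was 7.99 to 8.81 in 6-week BPH/2J and 7.39 to 8.05 in 6-week BPN/3J. One 6-week BPH/2J array, replicate 2, had a thalamus list mean within the BPN/3J range, at 9.37, and its Hdc level of 8.02 was the lowest of its group; without it the Hdc difference was 1.24 (adjusted p = 0.0233). When the mean of the thalamus list entered the limma fit as a covariate, the Hdc difference was 0.56 (adjusted p = 0.959), and 162 genes in all were called, against 1479 without the covariate. In RNA from whole tissue, fewer cells of a type and less RNA per cell cannot be told apart.

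Leaving out single arrays moved the Hdc difference at 6 weeks between 0.94 and 1.36, and the call was lost in 7 of 24 fits. Those were the fits without BPH/2J replicates 1, 3, 4 or 6 and without BPN/3J replicates 3, 5 or 6, with a highest adjusted p of 0.102. All 7 left out one of the 12 arrays at 6 weeks. Leaving out an array of a group not compared cannot move the difference, here or in the other counts out of 24 fits. The adjusted p was 0.0586 with a trended, robust variance prior and 0.0636 with all probe sets tested. Over 12 alternatives the difference was 0.56 to 1.30 and the adjusted p 0.00217 to 0.959.

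In BPH/2J, Hdc was lower at 26 weeks than at 6 weeks. The mean was 7.09 ± 0.79 at 26 weeks and 8.45 ± 0.27 at 6 weeks (SD, n = 6 each), and Hdc fell by 1.36 ± 0.33 on the log2 scale (95% interval -2.05 to -0.68; 2.57-fold; limma adjusted p = 0.00682). Its lowest, median and highest values were 6.00, 7.28 and 7.95 in 26-week BPH/2J, against 8.02, 8.51 and 8.73 in 6-week BPH/2J. The groups did not overlap, and the exact permutation p of 0.00216 is the smallest that 6 against 6 arrays can give. This comparison and the strain difference at 6 weeks share the same 6 young BPH/2J arrays. The share of all genes whose groups did not overlap is not given, here or for the genes below.

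Both of the lowest 26-week BPH/2J values, 6.00 and 6.30, were on the arrays that stood apart. Those 2 arrays averaged 6.15 and the other 4 averaged 7.56, while in 26-week BPN/3J the pair averaged 7.12 and the other 4 averaged 7.58. Without the 4 arrays the age difference of Hdc in BPH/2J was -0.90 (adjusted p = 0.0336), and with a term for the array sets it was -1.05 (adjusted p = 0.00929). The call held in each of the 24 fits that left out 1 array, over differences of -1.54 to -1.15. The tissue markers moved here too: 14 of 15 thalamus markers were called higher at 26 weeks in BPH/2J, and 6 of 15 hypothalamus markers were called lower and 0 higher, with a list mean of 7.70 to 8.37 at 26 weeks and 7.99 to 8.81 at 6 weeks. With the thalamus covariate the Hdc difference was -0.77 (adjusted p = 0.587) and 8 genes in all were called, against 3362 without it. Over 12 alternatives the adjusted p ran from 0.00327 to 0.587.

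No strain difference in Hdc was called at 26 weeks. The mean was 7.09 ± 0.79 in BPH/2J and 7.43 ± 0.39 in BPN/3J (SD, n = 6 each), a difference of -0.34 ± 0.33 (95% interval -1.03 to 0.35; limma adjusted p = 0.777). Values ran over 6.00, 7.28 and 7.95 (lowest, median, highest) in 26-week BPH/2J and 6.82, 7.49 and 7.82 in 26-week BPN/3J, so that the BPH/2J arrays reached beyond the BPN/3J arrays at both ends. Without the 4 arrays that stood apart the difference was -0.03. In BPN/3J the age difference of Hdc, 26 weeks over 6 weeks, was 0.14 ± 0.33 (95% interval -0.55 to 0.82; adjusted p = 0.820). The change of the strain difference with age, tested as an interaction, was -1.50 ± 0.47 with an unadjusted p of 0.00391 and an adjusted p of 0.172, which did not pass. In order of mean, 6-week BPH/2J stood first at 8.45, and 26-week BPN/3J at 7.43, 6-week BPN/3J at 7.29 and 26-week BPH/2J at 7.09 followed with overlapping ranges.

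**Figure D1:**
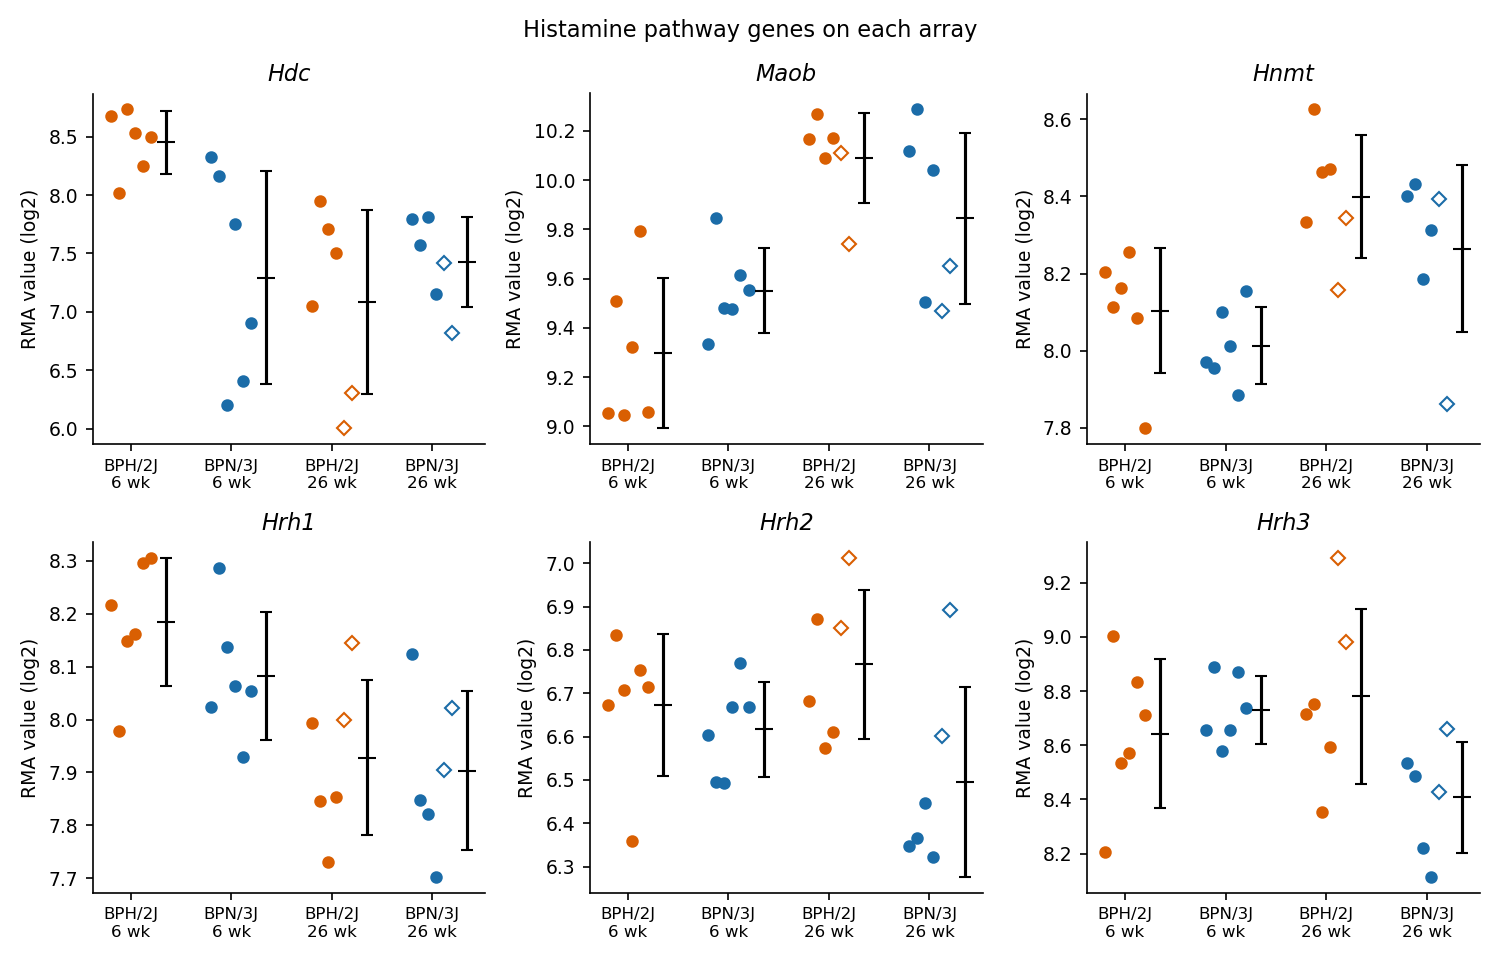
RMA log2 intensity (vertical axis, a separate range for each gene) of the 6 histamine genes on each of the 24 arrays, by group. Points are arrays, open diamonds are the 4 arrays at 26 weeks that stood apart, and black bars are means with SD (n = 6 a group); Hdc is highest and tightest in 6-week BPH/2J, at 8.02 to 8.73.

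**Figure D2:**
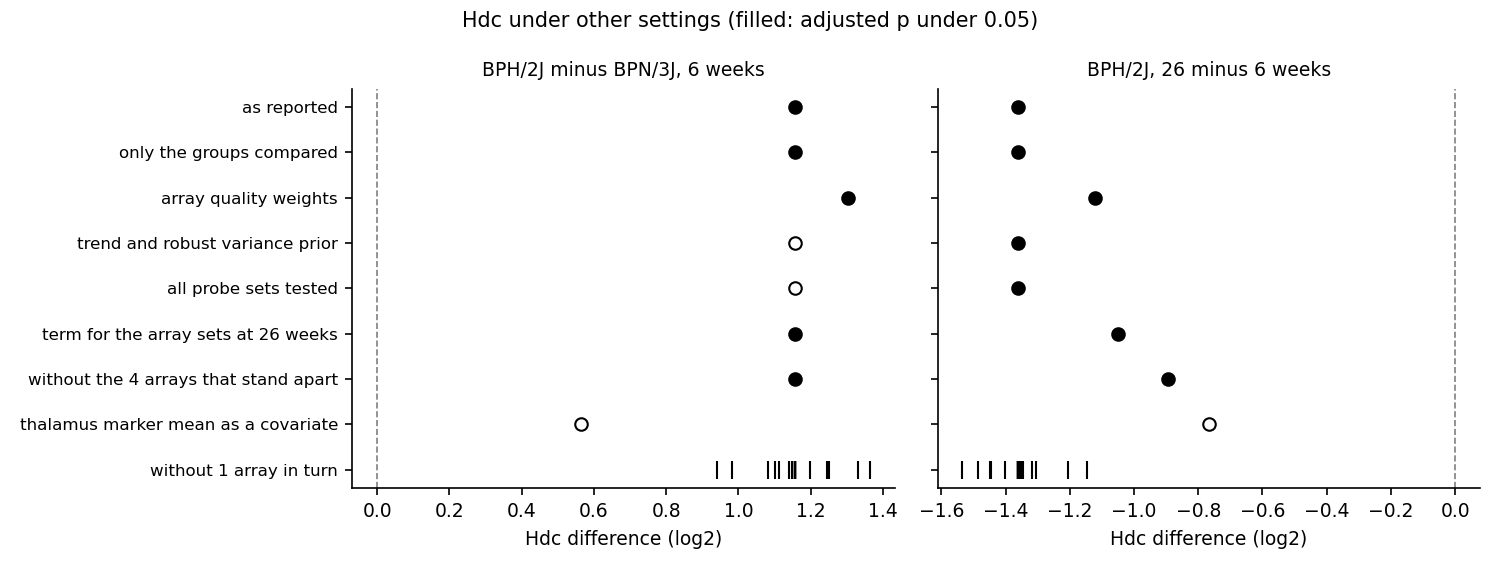
Log2 difference of Hdc (horizontal axes) as reported and under 7 alternatives, with a tick for each fit without 1 array, for BPH/2J minus BPN/3J at 6 weeks and for 26 minus 6 weeks in BPH/2J. Filled points passed an adjusted p of 0.05; all values drawn lie above 0 for the strain difference (0.56 to 1.36) and below 0 for the age difference (-1.54 to -0.77).

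Mast cells also express Hdc, so 8 of their marker genes were read beside it. On all 24 arrays 6 of the 8 lay below the median of the unnamed probe sets, and the list mean was 3.89 to 4.12 in 6-week BPH/2J and 3.94 to 4.09 in 6-week BPN/3J. At 6 weeks 0 of the 8 were called between strains in the limma fit, and 0 had an unadjusted p under 0.05. At 26 weeks 7 of the 8 were higher in BPH/2J, 3 with an unadjusted p under 0.05 and 1 called, against 2.67% of all genes called. The list mean was then 3.98 to 4.22 in BPH/2J and 3.85 to 4.02 in BPN/3J. Cpa3, a mast cell protease below that median on all 24 arrays, was called higher in BPH/2J than BPN/3J at 26 weeks (0.48 ± 0.12, adjusted p = 0.0286) and higher at 26 than 6 weeks in BPH/2J (0.47 ± 0.12, adjusted p = 0.0102), whereas Hdc was not called in the first of these comparisons and was lower in the second. The first Cpa3 call was lost in 6 of 24 fits, those without 26-week BPH/2J replicates 2, 3 or 4 or BPN/3J replicates 1, 2 or 3.

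The breakdown enzymes were both higher at 26 than at 6 weeks in BPH/2J. Of all 6 genes 4 were called in that comparison, against 16.9% of all genes; Maob and Hnmt were the 2 called higher, against 8.23% of all genes, and Hdc and Hrh1 were the 2 called lower, against 8.64%. The median difference of the 6 genes was 0.12 and that of all genes was -0.03.

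Maob had the smallest adjusted p of the 6 genes. Its mean was 10.1 ± 0.18 in 26-week BPH/2J and 9.30 ± 0.31 in 6-week BPH/2J (SD, n = 6 each), a rise of 0.79 ± 0.14 (SE; 95% interval 0.50 to 1.08) or 1.73-fold, with a limma adjusted p of 0.000636. The lowest, median and highest values were 9.74, 10.1 and 10.3 in 26-week BPH/2J, against 9.05, 9.19 and 9.79 in 6-week BPH/2J. A single pair of arrays overlapped, and 5 of the 6 older arrays lay above every younger one. The difference was 0.74 to 0.89 over the 24 fits without 1 array, 0.88 without the 4 arrays that stood apart, and 0.39 (adjusted p = 0.464) with the thalamus covariate. The adjusted p over 12 alternatives was 1.34e-05 to 0.464.

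In BPN/3J the age difference of Maob was 0.29 ± 0.14 (SE; 95% interval 0.01 to 0.58) and did not pass, with an adjusted p of 0.164. Its lowest, median and highest values were 9.47, 9.85 and 10.3 in 26-week BPN/3J and 9.33, 9.52 and 9.85 in 6-week BPN/3J. The strain difference of Maob, BPH/2J over BPN/3J, was 0.25 ± 0.14 at 26 weeks (adjusted p = 0.510) and -0.25 ± 0.14 at 6 weeks (adjusted p = 0.367). The interaction of strain and age was 0.50 ± 0.20 (unadjusted p = 0.0189, adjusted p = 0.321), so the larger age difference in BPH/2J was not shown to differ from that in BPN/3J.

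Hnmt moved less. Its mean was 8.40 ± 0.16 in 26-week BPH/2J and 8.10 ± 0.16 in 6-week BPH/2J (SD, n = 6 each), a rise of 0.30 ± 0.09 (95% interval 0.10 to 0.49; 1.23-fold; limma adjusted p = 0.0299). Values ran over a lowest, median and highest of 8.16, 8.40 and 8.62 in 26-week BPH/2J, against 7.80, 8.14 and 8.26 in 6-week BPH/2J. Only the lowest older array lay inside the range of the younger arrays. The call was lost in 5 of 24 fits, those without 6-week BPH/2J replicates 5 or 6 and without 26-week BPH/2J replicates 2, 3 or 4, over differences of 0.24 to 0.34 and a highest adjusted p of 0.0880. It was also lost with all probe sets tested (adjusted p = 0.0511) and with the thalamus covariate (0.46, adjusted p = 0.257), over a range of 0.00119 to 0.257 in 12 alternatives.

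The age difference of Hnmt in BPN/3J was of similar size, 0.25 ± 0.09 (95% interval 0.06 to 0.44), and its adjusted p was 0.0733. Hnmt values were 7.86 to 8.43 in 26-week BPN/3J and 7.89 to 8.16 in 6-week BPN/3J, with the lowest older array, replicate 6, under all the younger ones. Leaving that array out gave a called difference of 0.33 (adjusted p = 0.0107). The Hnmt strain differences were 0.14 ± 0.09 at 26 weeks and 0.09 ± 0.09 at 6 weeks, with adjusted p values of 0.616 and 0.718, and the interaction was 0.04 ± 0.13.

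Among the receptors only Hrh1 passed a test, and it was lower at 26 weeks. Hrh1 encodes the receptor through which histamine excites neurons and to which the classical sedating antihistamines bind. Its mean was 7.93 ± 0.15 in 26-week BPH/2J and 8.18 ± 0.12 in 6-week BPH/2J (SD, n = 6 each), and it fell by 0.26 ± 0.08 (95% interval -0.42 to -0.09; limma adjusted p = 0.0280). Its lowest, median and highest values were 7.73, 7.92 and 8.14 in 26-week BPH/2J, against 7.98, 8.19 and 8.30 in 6-week BPH/2J. The ranges met in the middle, and 3 of the 6 older arrays lay under every younger one.

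The Hrh1 call was lost in 6 of 24 fits, those without 6-week BPH/2J replicates 1, 5 or 6 and without 26-week BPH/2J replicates 2, 3 or 4, over differences of -0.30 to -0.22 and a highest adjusted p of 0.0810. The thalamus covariate left -0.21 (adjusted p = 0.540), within a range of 0.00302 to 0.540 over 12 alternatives. In BPN/3J the age difference of Hrh1 was -0.18 ± 0.08 (95% interval -0.34 to -0.01; adjusted p = 0.134), over values of 7.70 to 8.12 at 26 weeks and 7.93 to 8.29 at 6 weeks. The Hrh1 strain difference, BPH/2J over BPN/3J, was 0.02 ± 0.08 at 26 weeks (95% interval -0.14 to 0.19) and 0.10 ± 0.08 at 6 weeks (95% interval -0.06 to 0.27).

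Hrh2, whose product raises cyclic AMP, passed no test. Its mean was 6.77 ± 0.17 in 26-week BPH/2J and 6.50 ± 0.22 in 26-week BPN/3J (SD, n = 6 each), a difference of 0.27 ± 0.10 (95% interval 0.07 to 0.47; limma adjusted p = 0.168). The lowest, median and highest values were 6.57, 6.77 and 7.01 in 26-week BPH/2J and 6.32, 6.41 and 6.89 in 26-week BPN/3J, and the 2 ranges overlapped. The difference was called with a term for the array sets (0.27, adjusted p = 0.0362) and without 26-week BPN/3J replicate 6 (0.35, adjusted p = 0.0241), and the adjusted p over 13 alternatives ran from 0.0362 to 0.439. At 6 weeks Hrh2 averaged 6.67 ± 0.16 in BPH/2J and 6.62 ± 0.11 in BPN/3J, a difference of 0.06 ± 0.10. Its age differences were 0.09 ± 0.10 in BPH/2J and -0.12 ± 0.10 in BPN/3J.

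Hrh3, the autoreceptor, was likewise not called in any comparison. Its mean was 8.78 ± 0.32 in 26-week BPH/2J and 8.41 ± 0.20 in 26-week BPN/3J (SD, n = 6 each), a difference of 0.37 ± 0.13 (95% interval 0.10 to 0.64; limma adjusted p = 0.161). The lowest, median and highest values were 8.36, 8.73 and 9.29 in 26-week BPH/2J, against 8.11, 8.46 and 8.66 in 26-week BPN/3J, with 4 of 6 BPH/2J arrays above every BPN/3J array. With the replicate number as a block over the 24 arrays the difference was called (0.37, adjusted p = 0.0478), and with the block on the 26-week arrays alone it was not (adjusted p = 0.102); the adjusted p over 13 alternatives was 0.0478 to 0.419, the highest of them without the 4 arrays that stood apart, where the difference was 0.27.

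The age difference of Hrh3 in BPN/3J was -0.32 ± 0.13 (95% interval -0.59 to -0.05; adjusted p = 0.0998), with 5 of the 6 older arrays under every younger one. Values were 8.11 to 8.66 in 26-week BPN/3J and 8.58 to 8.89 in 6-week BPN/3J. Over 12 alternatives the difference was -0.45 to -0.32 and the limma adjusted p 0.00466 to 0.1395. It was called in some of them, among them the fit without the 4 arrays that stood apart (-0.39, adjusted p = 0.0166). In BPH/2J the age difference was 0.14 ± 0.13 (adjusted p = 0.496), and at 6 weeks the strain difference was -0.09 ± 0.13 (adjusted p = 0.828). The interaction of strain and age for Hrh3 was 0.46 ± 0.19 (unadjusted p = 0.0195, adjusted p = 0.326). With the thalamus covariate the age difference of Hrh3 in BPN/3J was called (-0.33, adjusted p = 0.0478). The other Hrh3 differences named here, none of them called with it, were 0.34 (strain, 6 weeks), -0.29 (age, BPH/2J) and 0.04 (interaction). Of these the first 2 turned sign.

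At 26 weeks 0 of the 6 genes were called between strains in the limma fit, against 2.67% of all genes, and 2 had an unadjusted p under 0.05 (Hrh2 and Hrh3). The median difference was 0.19 for the 6 genes and 0.01 for all genes. None of the 6 passed the interaction of strain and age, which was called for 0.0301% of all genes, and 3 had an unadjusted p under 0.05 (Hdc, Maob and Hrh3). In BPN/3J 0 of the 6 differed with age, against 12.3% of all genes (4.60% higher and 7.66% lower at 26 weeks), and 4 had an unadjusted p under 0.05, namely Maob, Hnmt, Hrh1 and Hrh3. This last count was the one most changed by the 4 arrays that stood apart. Without them 4 genes were called in BPN/3J, with Maob at 0.44 and Hnmt at 0.32, and Hrh2 at -0.25 and Hrh3 at -0.39. With a term for the array sets 5 were called, the same genes and Hrh1 at -0.23. Of all 19937 genes, 6702 were called in BPN/3J without the 4 arrays and 7325 with the term, against 2445 as reported.

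**Figure D3:**
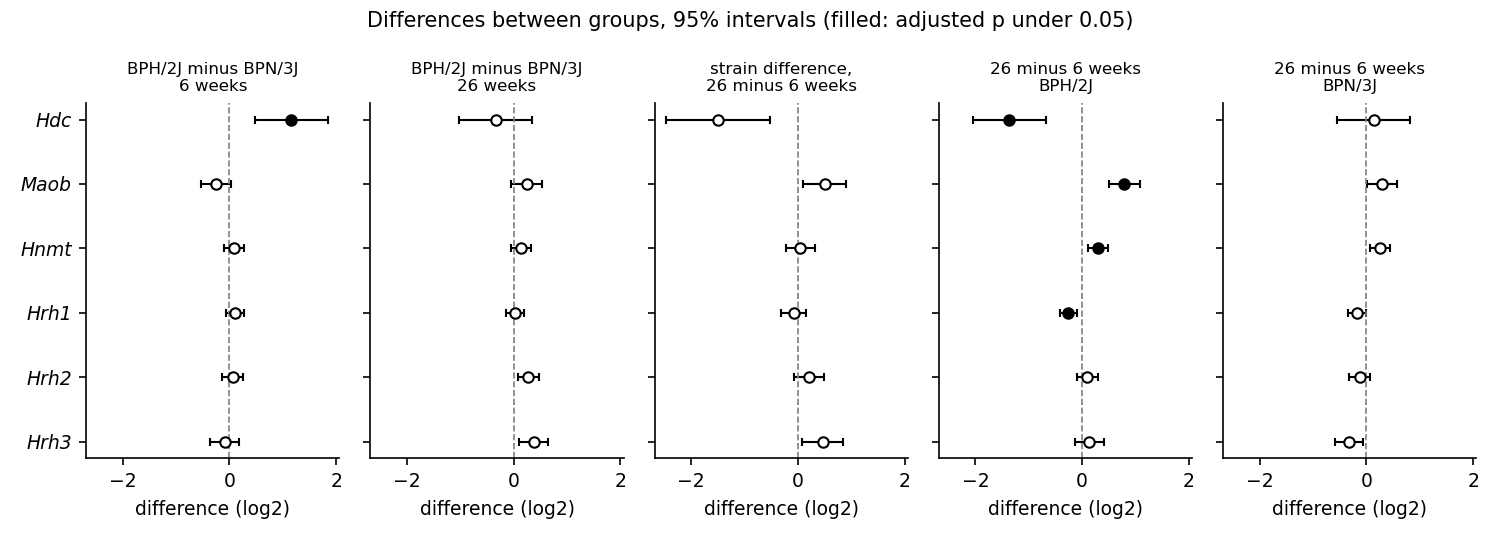
Log2 difference with its 95% interval (horizontal axis) for the 6 histamine genes in 5 comparisons: BPH/2J minus BPN/3J at each age, 26 minus 6 weeks in each strain, and their interaction. Filled points passed an adjusted p of 0.05 over 19937 genes; they are Hdc at 6 weeks and Hdc, Maob, Hnmt and Hrh1 with age in BPH/2J.

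Other genes of histamine handling were read from a list of 12, of which 11 were measured and Slc22a3 was not analysed here. Between strains 0 of the 11 were called at either age in the limma fit; 3 had an unadjusted p under 0.05 at 26 weeks and 1 at 6 weeks. With age in BPH/2J 4 of the 11 were lower and 0 higher, against 8.64% of all genes lower, with a median of -0.24 over the list and -0.03 over all genes. This is the comparison in which 14 of 15 thalamus markers were higher and 6 of 15 hypothalamus markers lower, and with the thalamus covariate 0 of the 11 were called. With age in BPN/3J 3 were lower and 0 higher, against 7.66% of all genes lower, with a median of -0.17 over the list and -0.03 over all genes. Without the 4 arrays that stood apart 5 were lower and 1 higher in BPH/2J, and 4 lower and 1 higher in BPN/3J; Slc7a5 was then also called higher in BPH/2J than in BPN/3J at both ages, by 0.36 at 26 weeks (adjusted p = 0.0186) and 0.28 at 6 weeks (adjusted p = 0.00838). The receptor Hrh4 and the diamine oxidase Aoc1, named after their values were seen, lay below the median of the unnamed probe sets on all 24 arrays.

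The 4 genes lower with age in BPH/2J were transporters and an aldehyde dehydrogenase. Slc29a4, a monoamine transporter that carries histamine into cells, fell by 0.48 ± 0.11 (adjusted p = 0.00533), with values of 7.04 to 7.49 in 26-week BPH/2J and 7.59 to 7.88 in 6-week BPH/2J. Slc15a4, a lysosomal histidine and peptide transporter, fell by 0.36 ± 0.07 (adjusted p = 0.00138), with 8.25 to 8.50 at 26 weeks and 8.57 to 8.90 at 6 weeks. Neither gene's groups overlapped, and the share of all genes without overlap in this comparison is not given. Aldh2, which oxidises the aldehyde that monoamine oxidase leaves, fell by 0.27 ± 0.06 (adjusted p = 0.00411) in BPH/2J and by 0.23 ± 0.06 (adjusted p = 0.0200) in BPN/3J. Slc7a5, the large neutral amino acid transporter that carries histidine, fell by 0.43 ± 0.14 in BPH/2J (adjusted p = 0.0385) and by 0.47 ± 0.14 in BPN/3J (adjusted p = 0.0326). The Slc7a5 call was lost in 7 of 24 fits without 1 array in BPH/2J (replicates 1, 3 or 6 at 6 weeks, or 1, 2, 3 or 4 at 26 weeks) and in 9 of 24 in BPN/3J (replicates 1 to 5 at 6 weeks, or 1 to 4 at 26 weeks). Its partner chain Slc3a2 fell in BPN/3J by 0.23 ± 0.06 (adjusted p = 0.0209), and its difference in BPH/2J was -0.05 ± 0.06. In BPN/3J the Slc3a2 call was lost without 26-week replicate 1 (highest adjusted p 0.0519) and the Aldh2 call without 26-week replicate 4 (highest adjusted p 0.0520).

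Maoa and Slc18a2 were not called in any comparison over the 24 arrays. Maoa, the monoamine oxidase next to Maob on the X chromosome, averaged 9.31 ± 0.24 in 26-week BPH/2J and 9.11 ± 0.04 in 6-week BPH/2J (SD, n = 6 each), a difference of 0.20 ± 0.10 (adjusted p = 0.161) where Maob rose by 0.79. Without the 4 arrays that stood apart Maoa was called higher with age in both strains, by 0.35 in BPH/2J (adjusted p = 0.000204) and 0.23 in BPN/3J (adjusted p = 0.00763). Slc18a2, the vesicular monoamine transporter that histaminergic and dopaminergic neurons share, averaged 7.91 in 26-week BPH/2J and 8.83 in 26-week BPN/3J, a difference of -0.93 ± 0.39 (adjusted p = 0.292), and ran from 6.94 to 10.7 over the 24 arrays. The highest of these values was on 26-week BPN/3J replicate 5, among the arrays that stood apart; the difference was -0.54 without that array and -0.55 without all 4.

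Of 7 genes known in histaminergic neurons, 2 of them also in the list above, 2 were lower with age in BPH/2J and 0 were higher, against 8.64% of all genes lower, beside the thalamus markers that were higher and the hypothalamus markers that were lower there. By sign 6 of the 7 were lower and 1, Maoa, was higher. With the thalamus covariate 0 of the 7 were called, with Prph at -0.30 and Wif1 at -0.32. Without the 4 arrays that stood apart both stayed called, at -0.51 and -0.48. Maoa was then called higher with age in BPH/2J (0.35, adjusted p = 0.000204). Msrb2, another of the 7, was not called in BPH/2J, at -0.06 (adjusted p = 0.667), or at 0.08 without the 4 arrays (adjusted p = 0.353). Prph, an intermediate filament protein, fell by 0.61 ± 0.14 (adjusted p = 0.00413), with 6.46 to 6.98 in 26-week BPH/2J and 7.08 to 7.52 in 6-week BPH/2J. Wif1, a secreted inhibitor of Wnt proteins, fell by 0.56 ± 0.15 (adjusted p = 0.0117), with 5.81 to 6.49 at 26 weeks and 6.38 to 6.92 at 6 weeks. Prph groups did not overlap and Wif1 groups did. In the reported fit none of the 7 was called between strains, with 1 unadjusted p under 0.05 at 26 weeks and 3 at 6 weeks. None was called with age in BPN/3J in that fit, with 0 under 0.05. Without the 4 arrays that stood apart 2 were called higher with age in BPN/3J. They were Hcrtr2 (0.28, adjusted p = 0.0277) and Maoa (0.23, adjusted p = 0.00763). Hcrtr2, the orexin receptor of these neurons, is named here after its values were seen: it was 6.94 to 7.25 in 6-week BPH/2J and 6.54 to 6.75 in 6-week BPN/3J, without overlap, and the difference of 0.39 ± 0.13 had an adjusted p of 0.0742, and of 0.00386 in the fit without the 4 arrays, all of them from 26 weeks.

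**Figure D4:**
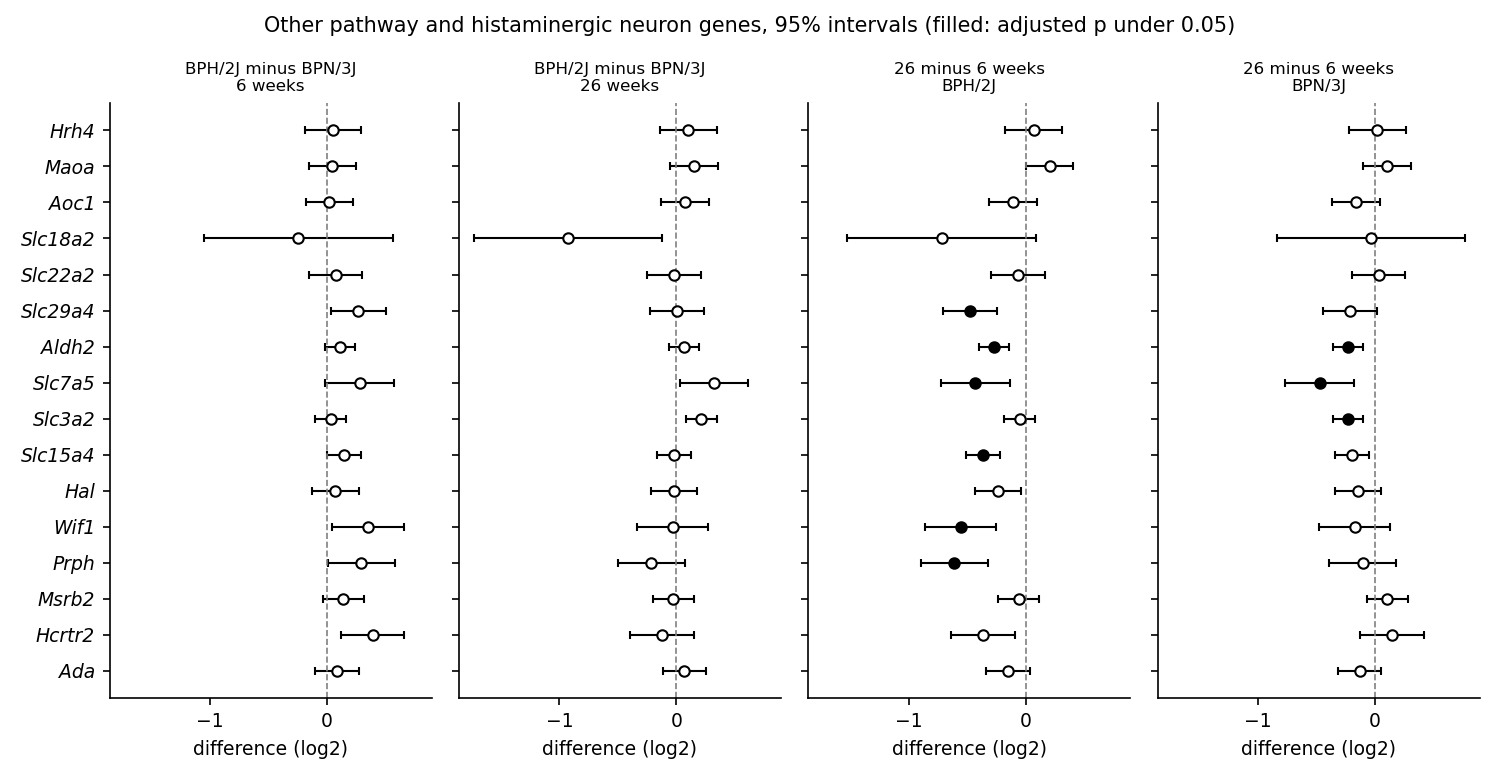
Log2 difference with its 95% interval (horizontal axis) for the other measured genes of histamine handling and of histaminergic neurons, for BPH/2J minus BPN/3J at each age and for 26 minus 6 weeks in each strain. Filled points passed an adjusted p of 0.05, and every filled point lies below 0 and in an age comparison.

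The genes of histaminergic neurons were also set beside Hdc array by array. Over the deviations of the 24 arrays from their group means, Prph had the highest Pearson r with Hdc of all 19936 other genes, 0.85 (Spearman rho 0.84), and r was 0.89 over the 12 arrays at 6 weeks and 0.85 with the means of the array sets removed as well. Msrb2, a methionine sulfoxide reductase, ranked 4 at r = 0.78, and Wif1 ranked 73 at r = 0.63. Of the others, r was 0.58 for Hcrtr2, 0.51 for Maoa, 0.26 for Slc18a2 and -0.17 for Ada, which ranked 14012. With the means of the array sets removed r was 0.66 for Msrb2, 0.61 for Wif1 and 0.47 for Slc18a2. It was then 0.26 for Hcrtr2, 0.125 for Maoa and -0.19 for Ada, so Slc18a2 came above Hcrtr2 and Maoa. These arrays share one normalisation and whole-tissue RNA, and the values are descriptions.

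**Figure D5:**
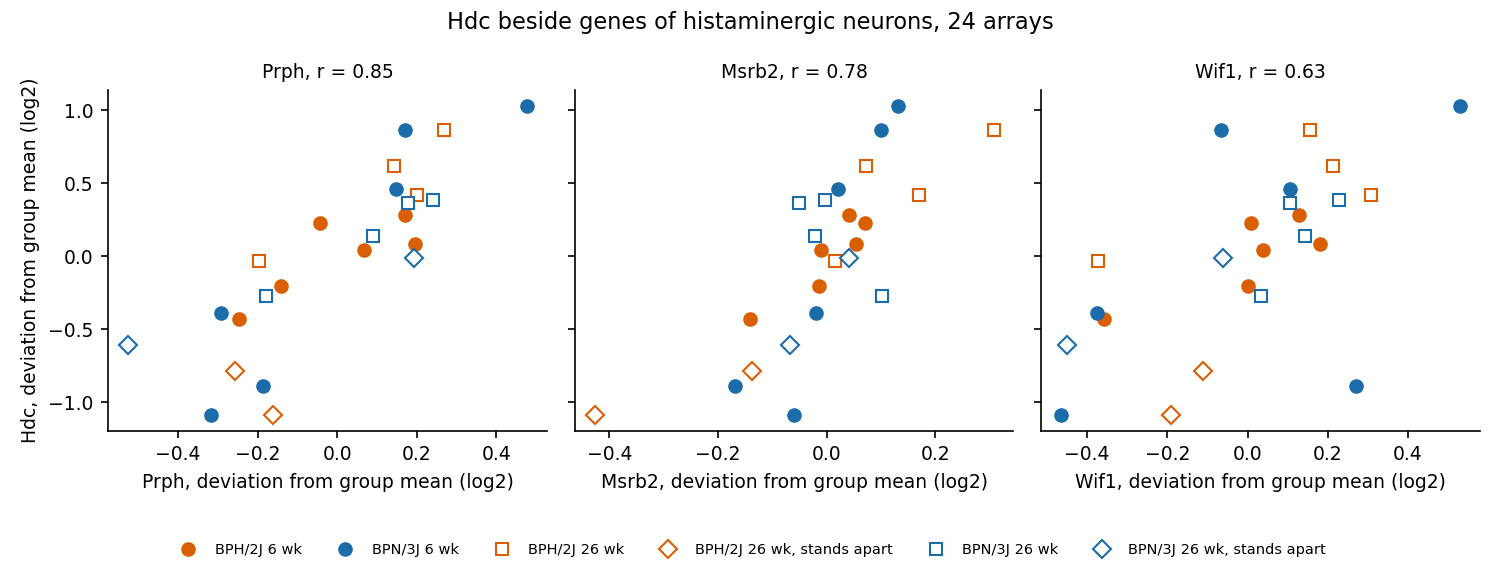
Deviation of Hdc from its group means (vertical axis, log2) against the deviations of Prph, Msrb2 and Wif1 (horizontal axes, log2) on 24 arrays, with open diamonds for the 4 arrays that stood apart. Prph follows Hdc most closely, at r = 0.85 against 0.78 for Msrb2 and 0.63 for Wif1.

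For each gene the 3 closest by Pearson r were sought among the 9977 brighter genes. For Hdc, Prph was followed by Efnb2, an ephrin ligand, at 0.80 and Htr2a, a serotonin receptor, at 0.79. Maob was closest to 1700086L19Rik at 0.86, then Kcnt2, a sodium-activated potassium channel, and Id4, a transcription regulator, at 0.85 each. Hnmt was closest to Fuca1, a lysosomal fucosidase, at 0.90, then Gpn1 and Alyref. Hrh1 was closest to Mir346 at 0.80, then Baiap3 and Faap100. Hrh2 was closest to Ttyh3 at 0.82, then Spock1 and Lpcat4. Hrh3 was closest to Slc29a1, an equilibrative nucleoside transporter, at 0.89, then Lrtm2 and Trhr2. All these values include the 4 arrays that stood apart. With the means of the array sets removed r was 0.69 for Efnb2 and 0.66 for Htr2a with Hdc, 0.81 for each of the 3 with Maob, 0.85 to 0.87 with Hnmt, 0.68 to 0.74 with Hrh1, 0.57 to 0.64 with Hrh2 and 0.80 to 0.84 with Hrh3.

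Among the 6 genes themselves 15 pairs were compared. Over all 24 arrays the highest r was that of Hrh2 with Hrh3, 0.55 (rho 0.63). Its adjusted permutation p was 0.127 for r and 0.0556 for rho, and r was 0.36 with array set means removed. Over the 12 arrays at 6 weeks the highest r was that of Maob with Hrh3, 0.70 (rho 0.80), and 0.70 without the 2 arrays farthest from the Maob median. Its permutation p was 0.0332 for r and 0.00791 for rho, and 0.497 and 0.119 after Benjamini-Hochberg adjustment over the 15 pairs. Over 20 arrays, without the 4 that stood apart, the same pair had r = 0.64 (adjusted permutation p = 0.166) and rho = 0.77 (adjusted permutation p = 0.00765). Over all 24 arrays the pair had r = 0.24 (adjusted permutation p = 0.405). Over the 12 arrays at 26 weeks, which include the 4 that stood apart, it had r = -0.09 (rho -0.13). With array set means also removed, the 24 arrays gave r = 0.67 (adjusted permutation p = 0.0582) and rho = 0.79 (adjusted permutation p = 0.0024). Whether the relation differs between the ages was not tested. Maob and Hrh3 lie on different chromosomes, X and 2.

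Genome neighbours of the 6 genes, in RefSeq order, were read for the same comparisons. Ndp, which encodes norrin and adjoins Maob, was higher with age in BPH/2J by 0.84 (limma adjusted p = 0.000161), where Maob rose by 0.79. Maoa on the other side was not called there over the 24 arrays (0.20). It was called without the 4 arrays that stood apart (0.35, adjusted p = 0.000204). The strain difference of Ndp at 6 weeks was -0.39 (adjusted p = 0.0511). Beside Hrh1, Slc6a11, a GABA transporter of astrocytes, fell by 0.49 with age in BPH/2J (adjusted p = 0.00167) and by 0.42 in BPN/3J (adjusted p = 0.0100). Atg7, an autophagy enzyme on the other side of Hrh1, was higher with age in BPH/2J by 0.30 (adjusted p = 0.00455). Osbpl2, beside Hrh3, was higher with age in BPH/2J by 0.29 (adjusted p = 0.0168), and Spopl, beside Hnmt, was higher with age in BPN/3J by 0.34 (adjusted p = 0.0392; lost in 8 of 24 fits, those without BPN/3J replicates 1 to 4 at either age). The neighbours of Hdc, Slc27a2 and Gabpb1, were not called in any of the 4 strain or age comparisons over the 24 arrays. Without the 4 that stood apart, Slc27a2 was called lower with age in BPH/2J (-0.21, adjusted p = 0.0446) and Gabpb1 higher with age in BPN/3J (0.25, adjusted p = 0.0107). Ndp was then also called lower in BPH/2J at 6 weeks (-0.39, adjusted p = 0.0221), a difference left unchanged because all 4 arrays were from 26 weeks. With age in BPN/3J Ndp was then called higher (0.39, adjusted p = 0.0185). Spopl was then called higher with age in BPH/2J too (0.41, adjusted p = 0.00082).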

How the data were processed

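RNA of 24 male mice was measured on Affymetrix Mouse Gene 1.0 ST arrays. The authors deposited log2 values after RMA normalisation, with the tools RMA and limma named per the submitters' processing notes; their versions: not given in the sources used here. Values were used as deposited, over 34760 probe sets, from 1.54 to 14.3, with array medians of 5.89 to 6.09. Precision rests on the number of arrays, 6 a group. The design text writes the normotensive strain once with another suffix; BPN/3J follows the sample labels.

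Probe sets with 1 gene symbol (21640) were kept, those with several (1321) or none (11799) were not named, and the brightest per gene gave 19937 genes. limma 3.58.1 in R 4.3.3 was fitted to 4 group means over all 24 arrays (20 residual degrees of freedom), with two-sided tests and Benjamini-Hochberg adjustment over all genes at 0.05; the procedure was tested on simulated data. The 6 genes and the gene lists were chosen with earlier results of these data known. All 6 genes are named in each comparison. Of the 2 pathway lists, genes called anywhere plus Slc18a2 and Maoa are named. Beyond that rule Hrh4, Aoc1, Msrb2, Hcrtr2 and Ada are named with their values seen. Of alike genes, the 3 highest r are named. Alternatives covered scaling, weights, variance prior, filters, probe sets, blocks, covariates and single arrays left out; the array set term and the fit without the 4 arrays were added after seeing the data. Same-numbered arrays of the 2 strains correlated at 26 weeks in 6 of 6 pairs (r 0.13 to 0.44). They did not at 6 weeks (-0.23 to 0.05). The reported fit did not pair arrays by number, and the replicate number entered only as a block in alternatives. In BPH/2J same-numbered arrays of the 2 ages had r of 0.01 to 0.41. The 4 arrays that stood apart bear the same numbers in both strains. Whether the correlation at 26 weeks goes beyond these array sets was not tested. Sequences are from RefSeq, GRCm38.p6.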

Additional observations from a re-analysis of the deposited data

Results flagged for a closer look

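Each of the 6 histamine genes was examined in each of the 4 groups for a single array far from the others, by the ratio of its gap to the group's range, against Dixon's 95% critical value for 6 arrays. Of 24 such checks 2 exceeded it, where chance alone gives about 1 in 20. Maob in 26-week BPH/2J had 1 low array, replicate 6, at 9.74, with a ratio of 0.665; it is among the 4 arrays that stood apart. Without it the age difference of Maob in BPH/2J was 0.86, against 0.79 with it. Hrh2 in 6-week BPH/2J had 1 low array, replicate 4, at 6.36, with a ratio of 0.662. Without it the strain difference of Hrh2 at 6 weeks was 0.12, against 0.06 with it, and neither was called.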

How the results depend on the processing

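Under 13 alternatives to the reported analysis, single arrays left out apart, 360 values of the 6 genes were recomputed: 325 kept their direction and their side of the threshold, 10 uncalled values changed sign, 8 calls were lost, 17 were gained, and 0 called values changed sign. Part of this agreement was fixed in advance. Each gene has 1 probe set, so averaging probe sets returned the reported differences. So did fitting only the compared groups, the trended prior, brighter genes, all probe sets and the replicate block, where only the adjusted p could move. The strain difference at 6 weeks was called for 1 gene as reported, for 0 with a trended, robust prior, with all probe sets tested or with the thalamus covariate, and for 0 to 1 without single arrays. At 26 weeks the count was 0 as reported, 1 with the replicate block (Hrh3), 1 with the array set term (Hrh2), and 0 to 1 without single arrays. With age in BPH/2J it was 4 as reported, 0 with the thalamus covariate, and 2 to 4 without single arrays. With age in BPN/3J it was 0 as reported, 1 with only the compared groups fitted, 3 with array quality weights, 1 with the replicate block, 1 with the thalamus covariate, 5 with the array set term, 4 without the 4 arrays that stood apart, and 0 to 1 without single arrays. The interaction stayed at 0 genes in these alternatives and in the fits without single arrays (0 to 0). Of 15 pairs of genes 0 passed by Pearson r over the 24 arrays and 1 over the 26-week arrays alone (Hdc with Hnmt, adjusted permutation p = 0.0373, and 0.113 by rho). By rho 0 passed over the 24 arrays, 1 with array set means removed and 1 without the 4 arrays (Maob with Hrh3 in both), and 1 over the 26-week arrays (Hrh1 with Hrh3, adjusted permutation p = 0.0178). The replicate block changed no other call of the 6 genes; in BPN/3J, where numbers do not pair the ages, its 1 call was Hrh3 (-0.32, adjusted p = 0.0348).

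Counts over all genes moved more. At 6 weeks 1479 genes were called as reported, 2322 with only the compared groups, 3725 with weights, 2460 without the 4 arrays and 162 with the thalamus covariate. At 26 weeks the count was 532 as reported, 248 with only the compared groups and 881 with the array set term. With age in BPH/2J it was 3362 as reported, 7475 with weights, 7479 with the array set term, 7843 without the 4 arrays and 8 with the thalamus covariate; in BPN/3J it was 2445 as reported and 6416, 7325 and 6702 under the same weights, term and omission. The interaction gave 6 genes as reported, and 27 on centred arrays, 52 after a second quantile normalisation, 683 with weights, 31 with the trended prior, 23 among brighter genes, 27 with the block, 251 with the array set term, 19 without the 4 arrays, and 0 with all probe sets or the thalamus covariate. The cause of these shifts was not tested. Each gene rests on 1 probe set and 6 arrays a group, and protein and histamine itself were not measured.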
